A study of Mus musculus with 32 samples.

Results

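The comparison described here was made within *Mtm1* KO muscle, between postnatal day 14 (P14, n=4) and postnatal day 21 (P21, n=4). Its 8 libraries were picked by the genotype and age in the sample labels, out of 32 RNAseq libraries of mouse skeletal muscle, 1 per mouse. The 32 came from WT and *Mtm1* KO animals at 4 ages: P14, P21, and postnatal days 1 (P1) and 35 (P35). The mice carried a whole-body deletion of *Mtm1* exon 4, which shifts the reading frame, and KO animals were hemizygous males (*Mtm1* is on the X chromosome). The labels give all animals as C57BL6/J, and the methods describe a line first made in 129 cells and then bred onto this background, tibialis anterior (TA) muscle as the source, and WT littermates as controls. P14 stands for the time before the mice show signs of disease, and P21, near weaning, for its onset. The WT libraries of the same days (n=4 at each age) show how muscle without the deletion moved over the same week.

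*Mtm1* encodes myotubularin, a phosphatase that acts on phosphoinositide lipids of endosomes, and its loss causes X-linked myotubular myopathy, in which fibres stay small with nuclei in their centre. In the weeks after birth mouse muscle leaves its perinatal programme: perinatal myosin gives way to adult fast myosins, muscle stem cells (satellite cells) stop dividing and their number falls, and the imprinted genes that drive growth before weaning are shut down. At weaning the diet also turns from fat-rich milk to chow rich in carbohydrate.

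*Mtm1* itself was low in every KO library. It stood at 3.88, 4.51, 4.12 and 3.79 CPM (counts scaled by library size) in the P14 libraries and at 3.69, 2.64, 2.85 and 3.38 CPM at P21, against 20.6±1.02 (SD, n=4) and 20.7±1.33 CPM in WT. Counts are per gene, so where in the transcript the remaining KO counts lie was not examined. The change from P14 to P21 did not pass the test (log2 fold change -0.39±0.13 SE, edgeR adjusted *P*=0.055). Counts summed to between 49889311 and 68663050 per KO library. The 6 myofibre markers together made up 67324 to 99916 CPM at P14 and 78872 to 84358 CPM at P21, so the labelled tissue carried its defining markers. Age goes with litter, day of dissection and any sequencing run that the labels do not name, so these cannot be told apart from age. In bulk RNA, fewer cells of a type and less RNA per cell cannot be told apart either.

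The P14 libraries of each genotype were spread along the course from P14 to P35. On a line drawn from the mean of the WT P14 libraries (position 0) to that of the WT P35 libraries (position 1) over 18583 genes, the KO P14 libraries lay at -0.20, -0.16, -0.0055 and 0.24, and the KO P21 libraries at 0.46, 0.41, 0.41 and 0.47. The groups did not overlap, and the mean moved by 0.471 (exact permutation test, two-sided, *P*=0.0286, the smallest that 4 against 4 allows). The P14 libraries numbered 4 lay farthest along in both genotypes (0.24 in KO, 0.22 in WT). At P21 KO lay at 0.439±0.034 and WT at 0.529±0.073 (SD, n=4), and this difference did not pass (exact permutation *P*=0.0857). Values of genes of the perinatal programme are given library by library.

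**Figure D1:**
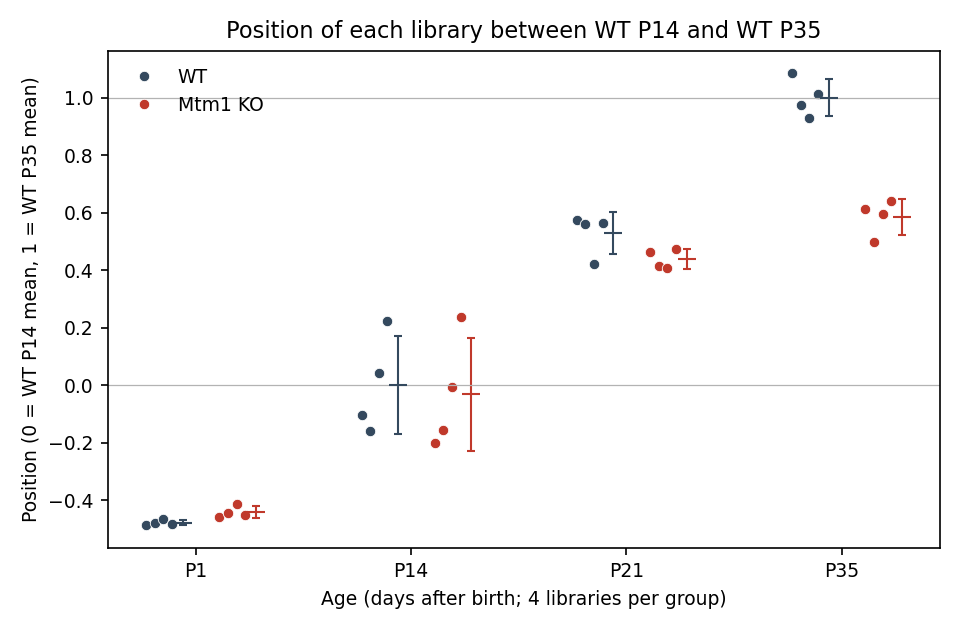
Each point is 1 library, placed along the line from the WT P14 mean (0) to the WT P35 mean (1) in log2 CPM over 18583 genes; bars give mean and SD of n=4, WT in blue-grey and *Mtm1* KO in red, by age in days. The P14 libraries are spread from -0.20 to 0.24 in KO, whereas the KO P21 libraries lie between 0.41 and 0.47.

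From P14 to P21, 514 genes rose (3.3% of the 15585 tested) and 583 fell (3.74%) in KO muscle. These DEGs had an adjusted *P*-value under 0.01 in edgeR's quasi-likelihood test and changed by more than 1.5-fold. The number of genes changed from P14 to P21 in KO lay between 396 (without the P14 library numbered 2) and 1884 (without that numbered 4) when 1 library was left out, and 7 of the 8 moved it by over 1.5-fold. The libraries of the 2 ages did not overlap for 4465 genes, or 28.6%. A positive log2 fold change in KO was found for 48.9% of all genes tested. The gene lists below were not tested against these shares. In WT muscle 450 genes rose (2.93% of 15337) and 398 fell (2.6%) over the same days, and the WT libraries did not overlap for 27.9% of genes. Much of the course was common to both genotypes, although no library is shared between the comparisons. Of the genes lower in KO, 195 were also called lower in WT (33.4% of the KO and 49% of the WT genes), and 558 of the 569 that could be tested in WT had the same sign there (98.1%), with a median log2 fold change of -0.995 in KO and -0.686 in WT. Of the genes higher in KO, 157 were also called higher in WT (30.5% and 34.9%), and 414 of 488 had the same sign (84.8%), with medians of 0.965 and 0.52. The change differed between KO and WT in the interaction test (all 32 libraries in 1 fit, adjusted *P*-value under 0.01) for 70 genes that moved further up in KO (0.377% of 18583) and for 9 that moved further down (0.0484%). When 1 library was left out, 30 to 100 genes passed. Of the 70 and 9 genes, 43 were among the genes higher in KO and 3 among the genes lower in KO.

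**Figure D2:**
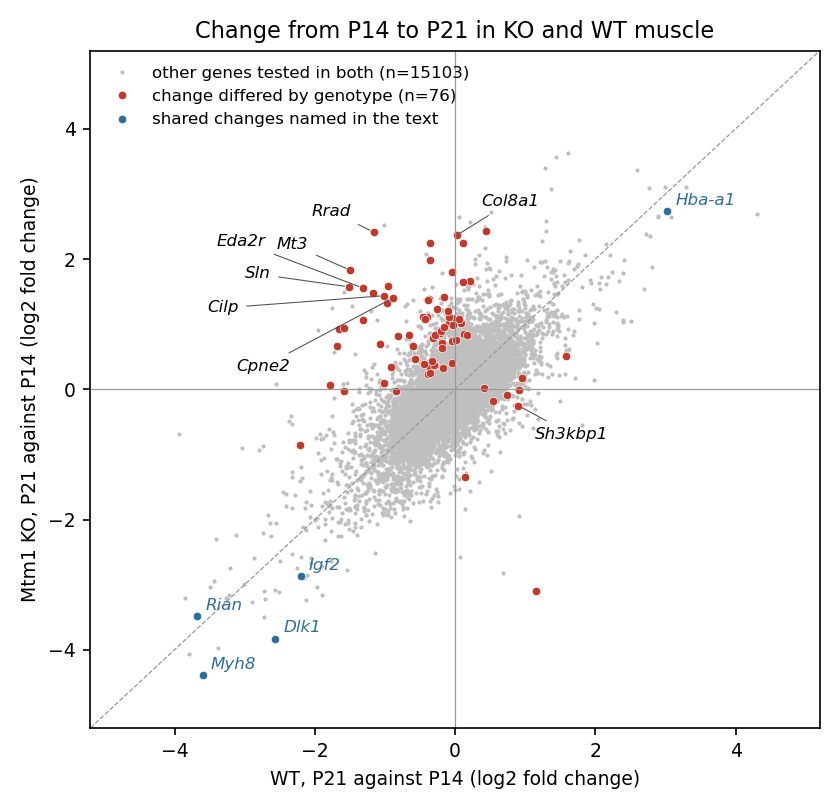
Each point is a gene tested in both genotypes (15179 genes), by its log2 fold change from P14 to P21 in WT (x axis) and *Mtm1* KO (y axis); the dashed line marks equal change. The 76 red genes passed the interaction test and most lie above 0 in KO and below 0 in WT, while labelled genes such as *Igf2*, *Rian* and *Hba-a1* lie on the same side of 0 in both.

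The deepest falls were those of imprinted and perinatal genes, in both genotypes. Imprinted genes are read from 1 parental copy, and many of them set growth before weaning. Of 19 imprinted growth genes tested in KO, 14 fell and 0 rose (1 had a higher value at an unadjusted *P*-value under 0.05, DESeq2 also called 14 lower and 0 higher, and 9 to 14 fell when 1 library was left out), with a median log2 fold change of -2.01 against -0.0085 over all genes tested. In WT 11 of 18 fell, with a median of -1.47. *Igf2*, the main fetal growth factor, was at 3451, 2933, 2236 and 1746 CPM at P14 and at 414, 321, 398 and 303 CPM at P21. Every P21 library lay below every P14 library (log2 fold change -2.87±0.22 SE, edgeR adjusted *P*=0.000352; WT -2.20±0.23 SE). *Cdkn1c*, an imprinted inhibitor of the cell cycle, went from 522±108 to 87.6±10.2 CPM (SD, n=4; log2 fold change -2.59, edgeR adjusted *P*=0.000264).

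Part of this group sits in a single imprinted cluster on chromosome 12 (GRCm38). It starts with *Dlk1* (109452823 to 109463336, plus strand), which encodes a transmembrane relative of Notch ligands, and the long non-coding RNA *Meg3* (109541001 to 109571726, plus strand). Next come the retrotransposon-derived *Rtl1* (109589193 to 109600330, minus strand) and the small RNA host genes *Rian* (109603940 to 109661716, plus strand) and *Mirg* (109729764 to 109749460, plus strand). *Dio3* (110279068 to 110281097, plus strand) lies farthest along. *Dlk1* was at 322, 251, 128 and 70.5 CPM in the KO P14 libraries and at 15.8, 10.1, 15.5 and 13.6 CPM at P21 (log2 fold change -3.83±0.45 SE, edgeR adjusted *P*=0.00095). Its P14 values went down in the order of the libraries' positions on the maturation line. *Rian* went from 3572, 3481, 2460 and 1673 CPM to 255, 165, 229 and 362 CPM. *Mirg* fell by 3.03 on the log2 scale in KO and by 3.49 in WT, and *Meg3* by 3.01 in WT and by almost the same step in KO. *Dio3* had a positive log2 fold change in KO (1.52, given here without its test result) and was not tested in WT. The values of the cluster therefore did not all go the same way in KO. *Rtl1* was at 18.6, 13.2, 2.01 and 0.436 CPM at P14 and had between 0 and 4 counts per library at P21. The genes of the cluster lie close together on both strands and it is not stated whether the counting used the strand, so reads of *Rtl1* and of the transcripts opposite to it cannot be told apart.

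*Myh8*, the perinatal myosin heavy chain, was the second of the 12 deepest falls after *Rtl1*, among DEGs whose ages did not overlap and whose higher mean was at least 1 CPM. It was at 1432, 1116, 287 and 95 CPM at P14 and at 36.2, 35, 38.7 and 31.9 CPM at P21, so that P14 spanned over 1 order of magnitude and P21 almost none (log2 fold change -4.39±0.75 SE, edgeR adjusted *P*=0.00403, up to 0.0166 over its alternatives). In WT it went from 292±217 to 24.2±4.59 CPM (SD, n=4). *Arhgap36* and *Atp1b4*, a muscle member of the sodium pump beta subunit family, had the same pattern, from 27.3, 22.9, 11.7 and 3.79 to about 1 CPM (0.816 to 1.31) and from 364, 348, 176 and 68.3 to between 12.4 and 28.4 CPM. Others of the 12 were not neonatal remnants but peaked at P14. *Asic1*, a proton-gated sodium channel, had a mean of 0.342 CPM at P1, stood at 7.71, 8.05, 8.3 and 7.51 CPM at P14 and at 0.952, 0.479, 1.13 and 1.22 CPM at P21 (log2 fold change -3.08±0.24 SE, edgeR adjusted *P*=0.000336; WT -2.57). *Gpr50*, an orphan relative of the melatonin receptors, went from 0.992 (P1 mean) to 3.39±0.989 and then 0.399±0.141 CPM (SD, n=4).

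**Figure D3:**
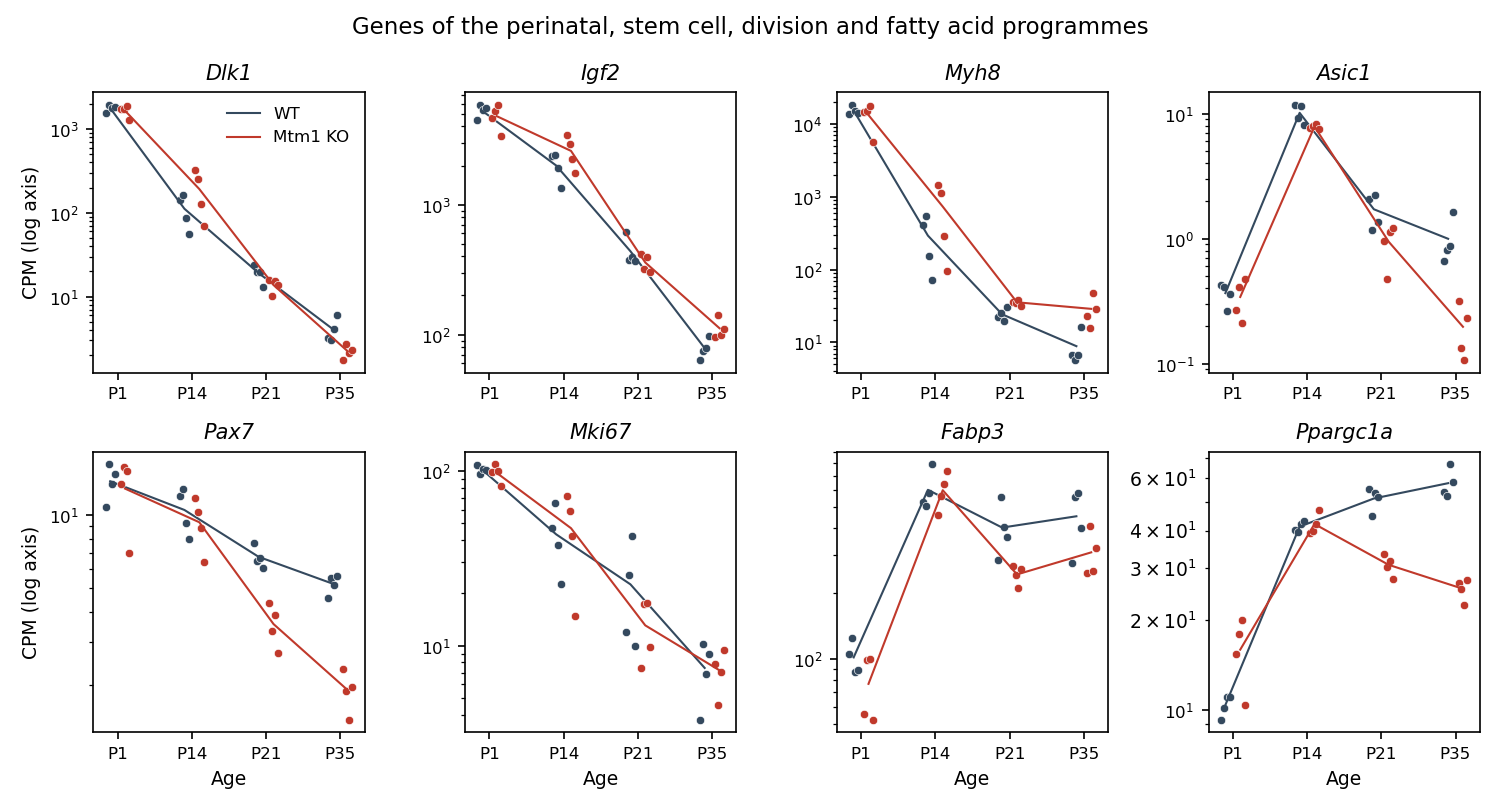
CPM on a log axis for 8 genes at 4 ages; points are libraries (n=4 per group), lines join group means, WT in blue-grey and *Mtm1* KO in red. *Dlk1*, *Igf2* and *Myh8* fall in both genotypes, *Asic1* peaks at P14, and *Pax7*, *Fabp3* and *Ppargc1a* are lower in KO than in WT at P21.

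Some satellite cell genes fell in KO. Of 20 myogenic and satellite cell genes, 7 fell (3 to 7 when 1 library was left out) and 1 rose, beside 3.74% and 3.3% of all genes tested in KO. The list had a median log2 fold change of -0.56 (WT: 5 fell, 0 rose, none higher even at an unadjusted *P*-value under 0.05 or by DESeq2, median -0.29). *Pax7*, the factor that marks satellite cells, was at 11.8, 10.3, 8.9 and 6.42 CPM at P14 and at 4.33, 3.33, 3.88 and 2.71 CPM at P21 (log2 fold change -1.42±0.21 SE, edgeR adjusted *P*=0.00215). In WT it went from 10.5±2.25 to 6.74±0.697 CPM (log2 fold change -0.65±0.15 SE, edgeR adjusted *P*=0.0142). *Calcr*, the calcitonin receptor that keeps these cells quiescent, went from 2.77, 2.48, 1.89 and 2.1 to 0.453, 0.229, 0.698 and 0.245 CPM (log2 fold change -2.51±0.33 SE, edgeR adjusted *P*=0.00133; WT -1.14±0.15 SE). The differences between genotypes did not pass for either gene (edgeR interaction -0.76±0.30 SE, adjusted *P*=0.24 for *Pax7*; -1.37±0.39 SE, adjusted *P*=0.076 for *Calcr*). The 6 satellite cell markers summed to 91.4 to 103 CPM at P14 and 63.7 to 95.7 CPM at P21 in KO. *Mymk*, which encodes the fusion protein myomaker, went from 21.6±5.38 to 4.66±0.803 CPM (SD, n=4; log2 fold change -2.23, edgeR adjusted *P*=0.000435). The gene that rose was *Itga7*, the laminin receptor of the fibre surface, with little spread: 127, 131, 135 and 126 CPM at P14, 204, 203, 197 and 196 CPM at P21 (log2 fold change 0.61±0.06 SE, edgeR adjusted *P*=0.000435). In WT it was at 118±3.9 and 122±3.13 CPM, and the interaction did not pass (0.58±0.17 SE, edgeR adjusted *P*=0.0929).

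Genes of cell division were lower at P21 without passing the test. All 35 cell cycle genes tested had a negative log2 fold change in KO, with a median of -1.06 (WT -0.78), yet 0 were called by edgeR, 28 had an unadjusted *P*-value under 0.05 and DESeq2 called 15. *Mki67*, the proliferation marker, was at 71.7, 59.1, 42.3 and 14.8 CPM at P14 and 7.45, 17.4, 17.5 and 9.85 CPM at P21, so the library numbered 4 at P14 overlapped with P21 (log2 fold change -1.86±0.46 SE, edgeR adjusted *P*=0.0167). Without this most mature P14 library, edgeR called 27 of the cell cycle genes lower.

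Calls among adult sarcomere genes were few in number. Over all genes tested in KO 3.3% rose and 3.74% fell, and the sarcomere lists were not tested against those shares. Of 17 genes of the adult fast sarcomere 1 rose and 0 fell in KO (0 had lower values at an unadjusted *P*-value under 0.05, and DESeq2 called 0 lower). *Myh4*, the main fast myosin of TA, was at 35380, 47960, 59870 and 53450 CPM at P14 and at 45420, 41730, 40360 and 50710 CPM at P21, which overlap (edgeR adjusted *P*=0.59). Of the 10 myosin heavy chains 3 fell (0 to 4 when 1 library was left out): *Myh8*, the slow myosin *Myh7* from 603±46.9 to 372±82 CPM, and *Myh13*, the fast myosin of eye muscles, from 26.8±4.2 to 16.1±2 CPM (SD, n=4; edgeR adjusted *P*=0.00844 and 0.00365, up to 0.341 and 0.122 over their alternatives). The cardiac actin gene *Actc1* was at 2281, 2727, 3329 and 3292 CPM at P14 and 311, 565, 529 and 569 CPM at P21 in KO, a fall without overlap (log2 fold change -2.57±0.22 SE, edgeR adjusted *P*=0.000359), and at 4818±834 and 5128±2940 CPM in WT. The WT libraries at P21 ranged from 2545 to 9319 CPM, and the interaction did not pass (-2.65±0.55 SE, edgeR adjusted *P*=0.0108). *Myl6b*, an embryonic and slow light chain, had the reverse relation: 42.6, 38.9, 34.2 and 36.5 CPM at P14 and 28.5, 39.4, 46.6 and 36.6 CPM at P21 in KO, while WT went from 31.7±4.46 to 10.6±4.95 CPM (interaction 1.57±0.32 SE, edgeR adjusted *P*=0.00962, up to 0.0413 over its alternatives).

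Most genes that carry and burn fatty acids had lower values at P21 in KO. Of 39 genes of fatty acid uptake and oxidation 8 fell (4 to 10 when 1 library was left out, 14 by DESeq2) and 1 rose, beside 3.74% and 3.3% of all genes tested in KO. The log2 fold change was negative for 35 of the 39 (48.9% of all genes were positive), with a median of -0.53. In WT 2 rose and 2 fell with a median of -0.10, and the KO change was the lower one for 35 of 39 genes, against 48.7% of all genes for which the KO change was the higher one. *Fabp3*, the muscle fatty acid carrier, was at 461, 563, 637 and 736 CPM at P14 and at 267, 242, 212 and 258 CPM at P21, without overlap (log2 fold change -1.31±0.14 SE, edgeR adjusted *P*=0.000675; WT -0.59±0.22 SE, adjusted *P*=0.0729). *Decr1*, a mitochondrial enzyme for unsaturated fatty acids, went from 145, 162, 171 and 187 to 114, 106, 101 and 105 CPM (log2 fold change -0.66, edgeR adjusted *P*=0.00107), and *Ucp2* fell alike in KO (-1.16) and WT (-1.31). Of the 39 genes 0 passed edgeR's interaction test (*Fabp3*: -0.71±0.34 SE, adjusted *P*=0.363).

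Some genes of glycolysis and lipid synthesis rose in both genotypes. Of 39 genes of glycolysis and glycogen 5 rose and 2 fell in KO, beside 3.3% and 3.74% of all genes tested (WT: 8 rose, 2 fell, beside 2.93% and 2.6%). When 1 library was left out, 0 to 11 rose in KO and 5 to 14 in WT, and DESeq2 called 6 and 15 higher. The difference in these counts was not tested. *Hk2*, the inducible hexokinase, went from 130, 136, 159 and 228 to 329, 356, 363 and 304 CPM (log2 fold change 1.04±0.17 SE, edgeR adjusted *P*=0.00309, up to 0.0132 over its alternatives; WT 1.40). *Fbp2*, the muscle fructose bisphosphatase, fell from 69.2, 71.9, 80.8 and 77.7 to 21.7, 12.8, 15.4 and 21.9 CPM (log2 fold change -2.08±0.17 SE, edgeR adjusted *P*=0.000352; WT -1.11). *Mlxipl*, which encodes the carbohydrate response factor ChREBP, went from 39±5.32 to 69.5±4.6 CPM in KO and from 40.2±8.32 to 86.2±5.12 CPM in WT (SD, n=4). *Acaca*, which makes the building block of fatty acids, and *Srebf1*, a factor that drives lipid synthesis, also rose in KO, with log2 fold changes of 0.85 and 0.76 (edgeR adjusted *P* up to 0.0124 and 0.017 over their alternatives). *Gamt* and *Gatm*, the pair of enzymes that make creatine, fell in KO by 1.63 and 1.90 on the log2 scale and in WT by 2.29 and 1.43.

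Transcripts of the mitochondrial genome took a larger share at P21 in WT, and in KO no change of this share was detected; the difference between the genotypes was not tested for the share. The share of counts from the mitochondrial genome was 8.10±0.90% at P14 and 8.41±0.26% at P21 in KO (SD, n=4; exact permutation *P*=0.543), against 8.48±0.66% and 10.8±0.92% in WT (exact permutation *P*=0.0286). The KO difference of 0.308 percentage points became 0.698 (exact permutation *P*=0.0286) without the P14 library numbered 4 and -0.036 without that numbered 1. Of the 13 mitochondrially encoded proteins edgeR called 0 in KO (1 higher and 1 lower at an unadjusted *P*-value under 0.05, 0 by DESeq2), with a median log2 fold change of 0.14, and 3 higher in WT (1 to 9 when 1 library was left out, 7 by DESeq2), with a median of 0.58. For *mt-Nd2*, a subunit of complex I, the KO libraries were at 4105, 5209, 5354 and 6901 CPM at P14 and 7075, 6350, 6068 and 6752 CPM at P21, and the WT means were 5948±1126 and 10495±703 CPM. Of the nuclear genes for complexes II to V, 40 of 43 were negative in KO, where 48.9% of all genes tested were positive. The list had a median of -0.14 (WT 0.07), and 1 was called, *Cox8a* (64±9.2 to 36.7±3.25 CPM, edgeR adjusted *P*=0.00164). The change was lower in KO than in WT for 13 of 13 mitochondrially encoded genes, 42 of 43 genes of complexes II to V and 34 of 37 of complex I, with 0 genes of these lists past edgeR's interaction test. For 48.7% of all genes the KO change was the higher one. *Ppargc1a*, the coactivator that drives mitochondrial gene expression, went down in KO (39.2, 40, 42.1 and 46.9 to 33.4, 30.2, 31.7 and 27.5 CPM; log2 fold change -0.47±0.08 SE, edgeR adjusted *P*=0.00417, smaller than the fold required of a DEG), and had 41.2±1.7 and 51.2±4.63 CPM in WT (SD, n=4). Its interaction did not pass (-0.77±0.18 SE, edgeR adjusted *P*=0.0208).

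**Figure D4:**
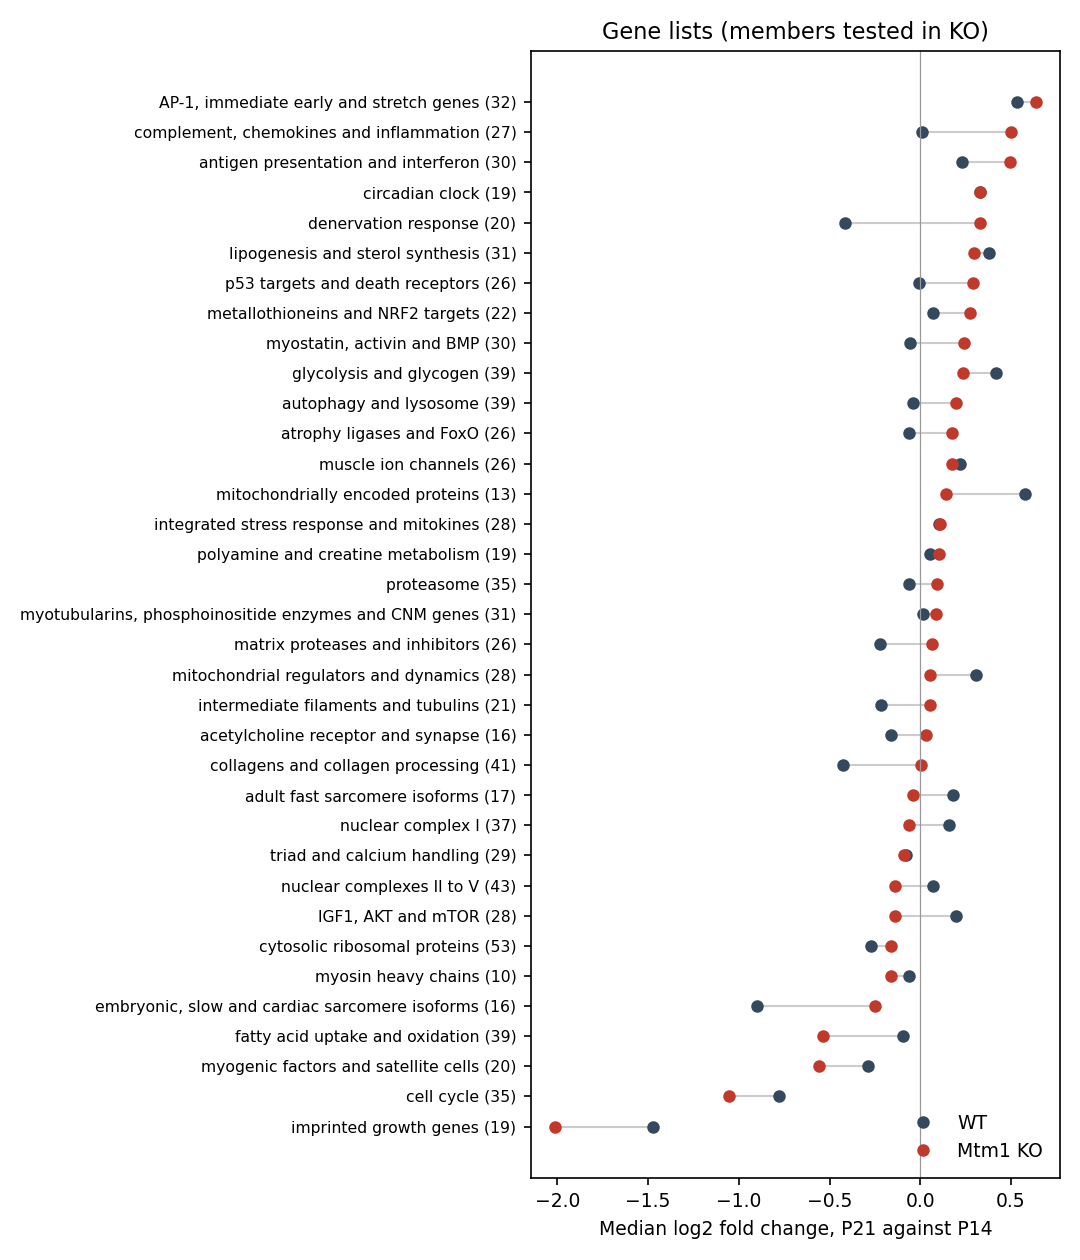
Median log2 fold change from P14 to P21 of the tested members of 35 gene lists, *Mtm1* KO in red and WT in blue-grey, with the number tested in KO after each name. The medians lie apart for the denervation response (0.33 in KO, -0.41 in WT), the mitochondrially encoded proteins (0.14 and 0.58) and fatty acid uptake and oxidation (-0.53 and -0.10).

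Most of the genes whose course differed between genotypes had higher values at P21 in KO and lower values in WT. Of the 70 genes that moved further up in KO, 57 had a mean that rose in KO and fell in WT, 13 were called lower in WT, and 3 were called higher in KO and lower in WT. At P14, before onset, the KO mean was already above the WT mean for 64 of 70 (50.9% of all genes tested), and for 30 of the 70 every KO library was above every WT library (3.04% of all genes tested). At P35 the KO mean was above that at P14 for 66 of 70 (50.4% of all genes tested). The P14 and P21 values of both genotypes were part of the test that chose these genes. That choice favours a rise in KO with a fall in WT, so the count of 57 describes the genes chosen. Its share over all genes tested was not computed. For 49 of 70 the WT mean was higher at P1 than at P14, which was also so for 52.9% of all genes.

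*Eda2r*, a receptor of the tumour necrosis factor family that binds an ectodysplasin isoform, had the smallest adjusted *P*-value. It was at 42, 49, 66.3 and 71.7 CPM in KO at P14 and at 223, 176, 131 and 150 CPM at P21, while WT went from 16.3, 17, 20.1 and 20.8 to 5.11, 8.75, 8.31 and 7.8 CPM. The 4 groups did not overlap, and the interaction was 2.88±0.26 SE on the log2 scale (edgeR adjusted *P*=1.22e-07). *Cpne2*, a copine that binds membranes in response to calcium, had 20.8, 21.8, 25.7 and 27.2 CPM at P14 and 73.2, 66.8, 48.2 and 66.9 CPM at P21 in KO, and 11.2±1.34 and 6.05±1.48 CPM in WT (SD, n=4; interaction 2.30±0.22 SE, edgeR adjusted *P*=3.49e-07). *Rrad*, a small GTPase that restrains calcium channels, went from 14, 15.1, 14.9 and 15.9 to 93.9, 117, 61.8 and 49.7 CPM in KO and from 5.98±1.74 to 2.69±0.928 CPM in WT (SD, n=4). Its interaction of 3.59±0.47 SE (edgeR adjusted *P*=6.76e-05) was the largest among the 12 genes with the smallest adjusted *P*-values.

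Matrix genes were among them. *Cilp*, a cartilage matrix protein that binds growth factors of the TGF-beta family, was at 304, 368, 526 and 385 CPM at P14 and at 1190, 1066, 999 and 1079 CPM at P21 in KO, and at 104±21.1 and 51.8±19.8 CPM in WT (SD, n=4). Every KO library was above every WT library at both ages, and the interaction was 2.46±0.32 SE (edgeR adjusted *P*=6.76e-05). *Col8a1*, a short network-forming collagen, rose from 18.4, 15.2, 15.2 and 12.9 to 64.5, 111, 83.2 and 63.2 CPM in KO with a level course in WT (14.1±1.93 and 14.4±4.29 CPM; interaction 2.35±0.33 SE, edgeR adjusted *P*=0.000193). *Mfap5*, a glycoprotein of microfibrils, was at 49.3±7.9 and 79±9.71 CPM in KO and 44.6±7.32 and 29.6±5.91 CPM in WT (interaction 1.27, edgeR adjusted *P*=0.00355, up to 0.0143 over its alternatives). Of 41 genes of collagens and collagen processing, a list that holds *Col8a1* and *Mfap5*, 3 rose and 2 fell in KO (*Col4a1* and *Col15a1*, both of basement membranes), beside 3.3% and 3.74% of all genes tested. The list had a median of 0.0067 in KO against -0.42 in WT. When 1 library was left out 1 to 2 rose and 0 to 4 fell, and the KO median lay between -0.12 and 0.13. The KO change was above the WT change for 34 of the 41 (48.7% of all genes), and 2 of them passed edgeR's interaction test. Of 26 genes in a list of matrix proteases and inhibitors, which also holds *Cilp*, 4 rose (3 to 6 when 1 library was left out), beside 3.3% of all genes tested in KO. Among the 4 were *Cilp*, given above, and *Timp1*, an inhibitor of metalloproteinases (2.81, 3.01, 4.48 and 2.83 to 10.5, 15.5, 11.2 and 8.87 CPM, edgeR adjusted *P*=0.00094). *Mustn1*, a small nuclear protein of muscle and skeleton kept in the same list, went from 63.4, 63, 62.3 and 63.4 to 213, 208, 148 and 228 CPM in KO and had 39±1.58 and 42.5±13.3 CPM in WT (interaction 1.54±0.28 SE, edgeR adjusted *P*=0.00348, up to 0.0199 over its alternatives). The 6 fibroblast markers summed to 1691 to 3660 CPM at P14 and 1782 to 5085 CPM at P21 in KO, and the 6 tenocyte markers to 110 to 271 and 148 to 938 CPM. These ranges overlap, and their part in the matrix genes was not tested.

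The remaining genes of the 12 were *Ttc9*, *Anxa4*, *Hsf2bp*, *Cyld*, *Osbpl3*, *Ppfibp1* and *Sh3kbp1*. *Anxa4*, an annexin, had the narrowest P14 values (16.3, 16.6, 17.6 and 16.9 CPM) and rose to 34.9, 44.6, 29.3 and 34.7 CPM, with 13.7±1.41 and 10.3±1.5 CPM in WT. *Cyld*, a deubiquitinase that damps NF-kappaB signalling, was alike in both genotypes at P14 (29.4±1.98 CPM in KO, 28.7±1.17 in WT) and parted at P21 (53.2±3.52 and 32.5±1.66 CPM; SD, n=4; interaction 0.68±0.09 SE, edgeR adjusted *P*=6.91e-05). *Sh3kbp1*, an adaptor of receptor endocytosis, was the 1 gene of the 12 with a lower change in KO: 28.6, 28.4, 29.2 and 39 CPM at P14 and 24.7, 23.9, 31 and 26.8 CPM at P21, against a rise from 37.1±2.49 to 69.9±13.7 CPM in WT (interaction -1.15±0.16 SE, edgeR adjusted *P*=0.000212). All 12 and *Mt3* passed the interaction test under every alternative that was run.

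**Figure D5:**
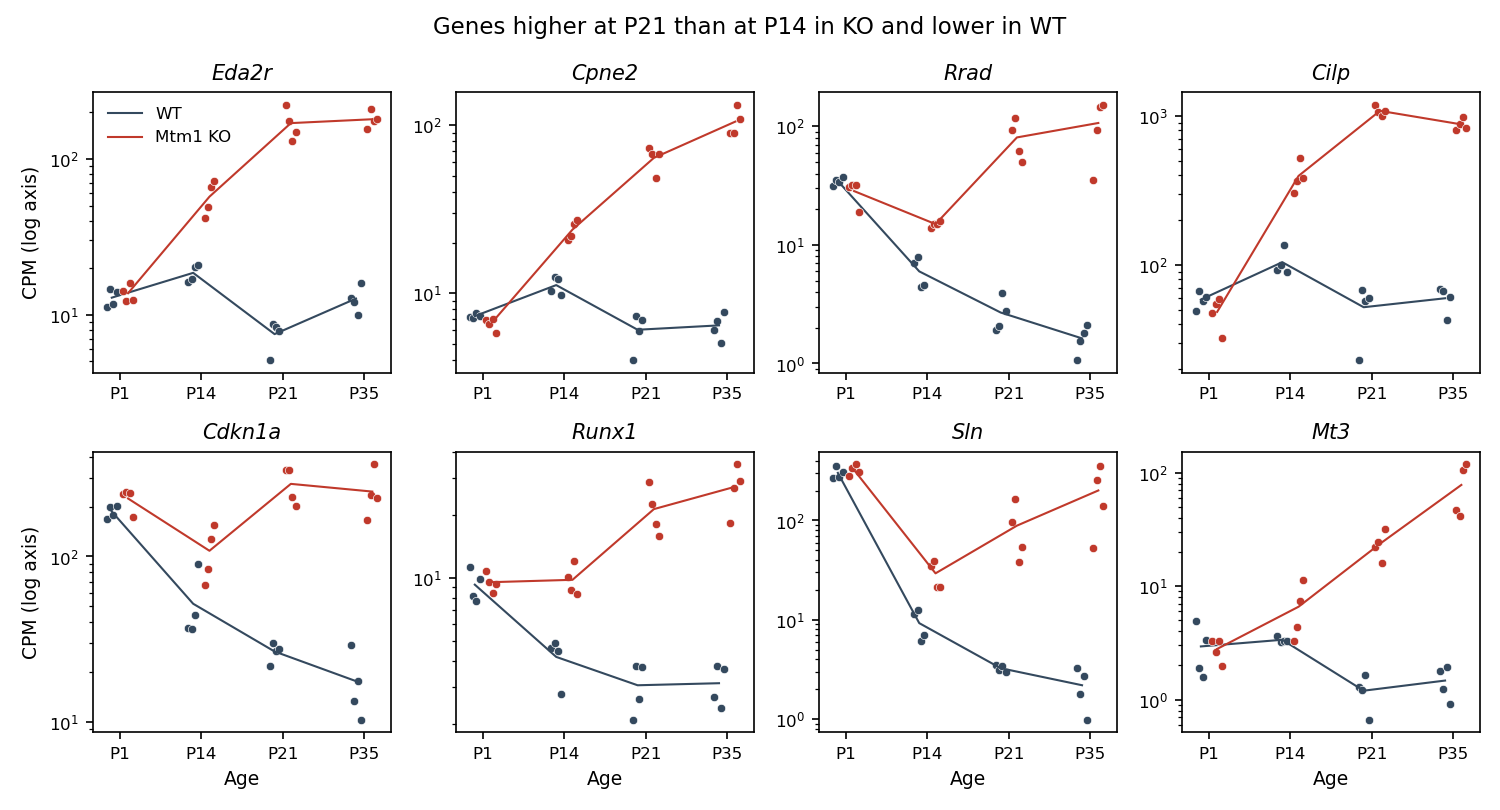
CPM on a log axis for 8 genes at 4 ages; points are libraries (n=4 per group), lines join group means, WT in blue-grey and *Mtm1* KO in red. Each gene is higher at P21 than at P14 in KO and lower in WT, and *Rrad*, *Cdkn1a* and *Sln* come down from high levels at P1 in both genotypes.

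Genes known to rise when a muscle loses its nerve had a positive median in KO and a negative one in WT. Of 20 genes of the denervation response 4 rose (1 to 4 when 1 library was left out) and 1 fell in KO, beside 3.3% and 3.74% of all genes tested. The list had a median log2 fold change of 0.33. Of the 4, *Cdkn1a* and *Ankrd1* are counted again in the p53 and the stretch lists below. In WT 0 of 19 rose (2 at an unadjusted *P*-value under 0.05, 1 by DESeq2) and 3 fell, with a median of -0.41. *Runx1*, a transcription factor that preserves denervated fibres, was at 10.1, 8.7, 12 and 8.32 CPM at P14 and 28.7, 22.7, 18.1 and 15.9 CPM at P21 in KO, and at 4.17±0.96 and 3.05±0.839 CPM in WT (SD, n=4). It rose in KO (log2 fold change 1.11±0.19 SE, edgeR adjusted *P*=0.00377, up to 0.017 over its alternatives) and the interaction was 1.58±0.31 SE (adjusted *P*=0.00627, up to 0.0216, and 0.0135 with same-numbered KO and WT libraries of 1 age as a block). Of 16 genes of the acetylcholine receptor and synapse 1 rose and 1 fell, beside 3.3% and 3.74% of all genes tested in KO. *Chrnd*, the delta subunit of the receptor, rose from 9.87±1.3 to 20.9±5.97 CPM (SD, n=4; edgeR adjusted *P*=0.00679, up to 0.0235). *Chrng*, the gamma subunit, had lower values at P21 in KO without passing the test (2.13±0.852 to 0.952±0.368 CPM; log2 fold change -1.19±0.39 SE, edgeR adjusted *P*=0.0477). In WT *Chrng* fell (-2.20±0.414 SE, edgeR adjusted *P*=0.00593). *Ncam1*, a marker of denervated fibres that was chosen after its values were seen, rose from 20.8±2.32 to 32.2±5.8 CPM (edgeR adjusted *P*=0.00997, up to 0.0334 over its alternatives). The denervation gene that fell was *Myog*, a myogenic factor (62.4±13 to 37.7±4.12 CPM, edgeR adjusted *P*=0.00832, up to 0.0322 over its alternatives; WT 54.5±16.8 to 14.9±5.05 CPM), and the synapse gene that fell was *Agrn*, the nerve-derived organiser of receptor clusters (57.2±7.03 to 32.8±3.27 CPM, edgeR adjusted *P*=0.00137).

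*Sln*, the sarcolipin that uncouples the calcium pump, was at 35, 39.5, 21.5 and 21.5 CPM at P14 and at 96.6, 165, 38.5 and 54.6 CPM at P21 in KO. These ranges overlap and the change did not pass (log2 fold change 1.57±0.42 SE, edgeR adjusted *P*=0.0233), but WT fell from 9.28±3.22 to 3.26±0.239 CPM and the interaction was 3.11±0.61 SE (adjusted *P*=0.00627, up to 0.0242 over its alternatives, and 0.0118 with that block). *Ankrd1*, a titin-binding stress protein, rose from 9.1, 6.42, 11.1 and 9.43 to 37.7, 53.8, 46 and 26.8 CPM (log2 fold change 2.17±0.23 SE, edgeR adjusted *P*=0.00066), and WT at P21 ranged from 1.52 to 32.7 CPM.

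Some targets of p53 rose. Of 26 p53 targets and death receptors 5 rose (2 to 6 when 1 library was left out) and 0 fell (3 lower at an unadjusted *P*-value under 0.05, 0 by DESeq2), beside 3.3% and 3.74% of all genes tested in KO. The list had a median of 0.29 in KO and -0.0074 in WT. *Cdkn1a*, the cell cycle inhibitor p21, was at 67.1, 83.9, 127 and 155 CPM at P14 and 334, 334, 230 and 202 CPM at P21 in KO, while WT went from 51.7±25.6 to 26.6±3.48 CPM (interaction 2.31±0.42 SE, edgeR adjusted *P*=0.00369, up to 0.0143 over its alternatives). Within KO, the P14 libraries farther along the maturation line had the higher values and this order is not seen at P21. *Trp63*, a p53 relative, rose from 14±3.5 to 27.8±2.77 CPM (edgeR adjusted *P*=0.00331, up to 0.0145), and *Aen* rose by nearly the same step in KO (0.68) and WT (0.73). The 8 keratinocyte markers, a list that holds *Trp63*, summed to 14.2 to 22 CPM at P14 and 28.8 to 35.8 CPM at P21 in KO, with *Krt14* and *Krt15* at 3 counts or fewer in each of the 16 libraries. *Trp63* itself gave most of this sum and of its rise. Of the 3 keratinocyte markers tested in KO 1 was positive and 2 were negative, with a median log2 fold change of -0.0995.

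Stress and stretch genes gave more rises than any other pathway list. Of 32 AP-1, immediate early and stretch genes 12 rose and 0 fell in KO (1 lower at an unadjusted *P*-value under 0.05, 0 by DESeq2), beside 3.3% and 3.74% of all genes tested. The list had a median of 0.64. In WT 6 of 31 rose with a median of 0.53, 0 genes of the list passed the interaction test, and 5 to 14 rose in KO when 1 library was left out. *Hspb7*, a small heat shock protein of muscle, was at 340, 326, 318 and 532 CPM at P14 and 1861, 1777, 1068 and 1292 CPM at P21 (log2 fold change 1.97±0.22 SE, edgeR adjusted *P*=0.000841; WT 1.29±0.22 SE). *Csrp3*, a stretch sensor of the Z disc, went from 82.9, 75.8, 51.8 and 98.3 to 341, 387, 281 and 206 CPM (log2 fold change 1.96±0.23 SE, edgeR adjusted *P*=0.00094), and *Cryab*, the chaperone of desmin, from 293±71.7 to 775±118 CPM (SD, n=4). *Fosl1*, an AP-1 subunit chosen after its values were seen, was at 0.147 to 0.452 CPM at P14 and 1.35 to 1.69 CPM at P21 in KO and had at most 3 counts in any WT library of these ages.

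Some filament genes rose. Of 21 intermediate filament and tubulin genes 5 rose (3 to 6 when 1 library was left out) and 0 fell (4 lower at an unadjusted *P*-value under 0.05, 2 by DESeq2), beside 3.3% and 3.74% of all genes tested in KO. Of the 21 genes 11 were positive and 10 negative, with a median of 0.05. *Des*, the muscle intermediate filament desmin, was at 2024, 2185, 2491 and 2841 CPM at P14 and 4314, 5019, 3800 and 4315 CPM at P21 (log2 fold change 0.86±0.14 SE, edgeR adjusted *P*=0.00303, up to 0.0158 over its alternatives), against 2201±383 and 2506±189 CPM in WT (interaction 0.68±0.22 SE, adjusted *P*=0.127). *Synm*, its partner synemin, rose in KO, and *Tuba4a* rose in both genotypes. *Krt8*, a keratin of simple epithelia, rose from 0.671, 0.456, 1.09 and 0.852 to 17.3, 7.24, 3.2 and 7.78 CPM (log2 fold change 3.52±0.50 SE, edgeR adjusted *P*=0.00188), and its dimer partner *Krt18*, chosen after its values were seen, from 2.81±0.926 to 16.3±11.5 CPM. *Tubb6*, a tubulin of regenerating and dystrophic muscle, went from 83.4, 76, 88.5 and 74.7 to 175, 140, 102 and 114 CPM without overlap, and just missed the threshold (log2 fold change 0.70±0.15 SE, edgeR adjusted *P*=0.0102).

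Some antioxidant genes rose. Of 22 metallothioneins and NRF2 targets 6 rose (4 to 8 when 1 library was left out) and 0 fell in KO (1 lower at an unadjusted *P*-value under 0.05, 0 by DESeq2), beside 3.3% and 3.74% of all genes tested. In WT 4 of 21 rose. *Srxn1*, which repairs oxidised peroxiredoxins, was at 15.9, 16.1, 20 and 21.2 CPM at P14 and at 48.3, 53.7, 47.8 and 51.8 CPM at P21 (log2 fold change 1.45±0.10 SE, edgeR adjusted *P*=0.000265). WT went from 16.9±0.238 to 26.1±3.21 CPM, and the interaction did not pass (0.84±0.18 SE, edgeR adjusted *P*=0.0142). *Txnrd1* and *Gstm2* rose alike in KO (0.68 and 1.19) and WT (0.64 and 0.82). *Mt3*, a metallothionein best known from brain, had 3.26, 4.36, 7.4 and 11.3 CPM at P14 and 22, 24.2, 16 and 32.1 CPM at P21 in KO, with 3.37±0.178 and 1.2±0.402 CPM in WT (interaction 3.34±0.56 SE, edgeR adjusted *P*=0.00166).

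Some genes of antigen presentation rose in KO. Of 30 such genes 5 rose (4 to 10 when 1 library was left out, 9 by DESeq2) and 0 fell (0 lower at an unadjusted *P*-value under 0.05 or by DESeq2), beside 3.3% and 3.74% of all genes tested in KO. Of the 30 genes 27 were positive, against 48.9% of all genes, and the median was 0.50. In WT 1 of the 30 was called higher and the median was 0.23. The genes with the smallest adjusted *P*-values belong to class II, the molecules that show peptides to helper T cells. *H2-Aa*, an alpha chain, was at 5.22, 4.42, 6.42 and 6.44 CPM at P14 and 14.3, 21.4, 14.2 and 15.5 CPM at P21 (log2 fold change 1.52±0.17 SE, edgeR adjusted *P*=0.000778). *H2-Eb1*, a beta chain, went from 3.86, 3.6, 4.8 and 4.8 to 10.3, 19.2, 11.4 and 13.4 CPM (1.66±0.20 SE, edgeR adjusted *P*=0.000999). *H2-Ab1* rose by 1.38 and *Cd74*, the invariant chain that escorts class II molecules, from 14.5±3.21 to 44.1±8.23 CPM (1.59±0.17 SE, edgeR adjusted *P*=0.000761). In WT the log2 fold changes of *H2-Aa*, *H2-Eb1*, *H2-Ab1* and *Cd74* were 0.12, 0.17, 0.03 and 0.20, and the interaction passed for none of the 4 (edgeR adjusted *P* from 0.0298 to 0.0666).

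The promoters of *H2-Aa* and *H2-Eb1* are shown because these class II genes moved together. Of 3 promoters looked for 2 were found, and *H2-Ab1* had no entry. Genes of this class share a Y box, the letters CTGATTGG on either strand, which nuclear factor Y is known to bind. The 300 bases around the RefSeq starts (250 before and 50 after, in the direction of the gene, GRCm38.p6) hold it 51 bases before the start of *H2-Aa* (chr17:34287774-34288073, minus strand) and 62 bases before that of *H2-Eb1* (chr17:34305617-34305916, plus strand), each on the gene's own strand and marked in capitals. The same letters are in 1346 of 32851 RefSeq promoters of this length (4.1%), so the match is a description of these windows.
H2-Aa: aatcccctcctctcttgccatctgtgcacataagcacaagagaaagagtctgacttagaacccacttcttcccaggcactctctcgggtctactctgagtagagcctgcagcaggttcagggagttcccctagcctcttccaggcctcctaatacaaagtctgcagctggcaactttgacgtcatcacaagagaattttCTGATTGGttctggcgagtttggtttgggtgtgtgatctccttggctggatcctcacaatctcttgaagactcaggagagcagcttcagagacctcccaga
H2-Eb1: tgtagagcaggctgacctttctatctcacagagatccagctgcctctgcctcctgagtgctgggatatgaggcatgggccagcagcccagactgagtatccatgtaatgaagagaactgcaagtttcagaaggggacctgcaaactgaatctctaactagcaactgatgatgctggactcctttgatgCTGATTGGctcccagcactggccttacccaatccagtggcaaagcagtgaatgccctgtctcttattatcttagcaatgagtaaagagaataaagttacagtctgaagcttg

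The summed macrophage markers were also higher at P21 in KO, and few of them passed the test one by one. The 8 macrophage markers summed to 104 to 137 CPM at P14 and 139 to 174 CPM at P21 in KO, without overlap, and to 124 to 130 and 108 to 129 CPM in WT. Of the 8, *Lyz2* (29.5, 21.4, 28.2 and 28.3 to 55.2, 44.5, 50 and 60.8 CPM, edgeR adjusted *P*=0.00132) and *Cd68* (2.47±0.634 to 6.4±1.92 CPM, adjusted *P*=0.0054, up to 0.0211 over its alternatives) rose, and *Lyz2* gave most of the higher sum. The other 6 did not pass. *Adgre1*, *C1qa*, *C1qb* and *Csf1r* had log2 fold changes of 0.65, 0.31, 0.33 and 0.36 (edgeR adjusted *P* from 0.0301 to 0.147). *Cd163* was at 8.61±2.7 and 8.5±2.4 CPM (SD, n=4), and *Mrc1* at 43.7±7.01 and 39±6.32 CPM. Their part in the rise of class II genes was not tested. *Lyz1*, a close copy of *Lyz2* with which it may share reads, went from 0.0759 to 0.258 CPM at P14 to 1.37 to 2.5 CPM at P21. *Ctss*, a lysosomal protease that processes the invariant chain, rose from 4.35, 3.39, 4.57 and 4.14 to 7.59, 7.59, 7.76 and 9.23 CPM in KO and had 4.62±0.5 and 4.18±0.854 CPM in WT (interaction 1.11±0.22 SE, edgeR adjusted *P*=0.00874, up to 0.049). *Cxcl10*, a chemokine induced by interferon, was at 0.395 to 0.769 CPM at P14 and 1.62 to 2.24 CPM at P21 in KO and at 0.278±0.119 and 0.145±0.0587 CPM in WT (SD, n=4; interaction 2.55±0.52 SE, edgeR adjusted *P*=0.00933, up to 0.0475, the value with same-numbered KO and WT libraries of 1 age as a block). *C3*, the central complement protein, rose in both genotypes (3.10 in KO, 2.76 in WT). Neutrophil markers summed to at most 1.93 CPM in KO, with *Ly6g* and *Mpo* at 3 counts or fewer in all 16 libraries, and markers of T, B and NK cells to at most 1.65 CPM.

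*Retnla* and *S100a4* were also among the 12 largest rises of DEGs whose ages did not overlap and whose higher mean was at least 1 CPM. *S100a4*, a calcium-binding protein of motile cells, was at 5.65, 4.83, 8.17 and 6.36 CPM at P14 and at 31.4, 56.1, 28.6 and 33.5 CPM at P21 in KO, with 3.78±0.501 and 4.42±1.7 CPM in WT (log2 fold change 2.57±0.24 SE, edgeR adjusted *P*=0.000435; interaction 2.36±0.50 SE, adjusted *P*=0.0122). *Retnla*, a secreted product of alternatively activated macrophages, went from 0.683 to 3.36 CPM at P14 to 10.4 to 15.7 CPM at P21, while WT had 4.79±4.29 and 6.82±3.12 CPM. *Aldh3a1*, an aldehyde dehydrogenase, had the largest log2 fold change of these 12 (3.82), but its P21 libraries spanned 0.431 to 3.6 CPM (edgeR adjusted *P*=0.0048, up to 0.0203 over its alternatives).

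Erythroid genes rose in both genotypes, and some vessel genes fell in KO. All 7 erythroid markers rose in KO and 6 of 7 in WT, with medians of 2.38 and 2.78. *Hba-a1*, an adult alpha globin that may share reads with its copy *Hba-a2*, was at 95, 80.6, 60.2 and 81.2 CPM at P14 and at 317, 627, 554 and 637 CPM at P21 (log2 fold change 2.74±0.23 SE, edgeR adjusted *P*=0.000363; WT 3.03±0.16 SE). The 7 markers together reached 1627 to 3283 CPM in KO at P21 and 3178 to 4358 CPM in WT. Of 7 endothelial markers 3 fell in KO and 0 rose (0 higher at an unadjusted *P*-value under 0.05 or by DESeq2): *Cldn5*, the tight junction claudin of vessels, went from 58.9, 60.9, 45.1 and 53.1 to 22.4, 23.9, 22.7 and 20.1 CPM (log2 fold change -1.31±0.10 SE, edgeR adjusted *P*=0.000352; WT -1.02), *Cdh5* from 287±31 to 169±15.4 CPM, and *Pecam1* from 225±28.1 to 131±12.2 CPM (SD, n=4). In WT 1 of the 7 fell, with a median of -0.19 against -0.52 in KO. *Acta2*, the actin of smooth muscle, fell from 487, 467, 360 and 262 to 100, 148, 117 and 122 CPM (log2 fold change -1.71±0.20 SE, edgeR adjusted *P*=0.000953), and had 297±76.5 and 179±75.9 CPM in WT (SD, n=4).

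Genes around myotubularin moved by small steps. Of 31 myotubularins, phosphoinositide enzymes and genes of centronuclear myopathy 1 rose and 1 fell, beside 3.3% and 3.74% of all genes tested in KO. The gene that rose was *Vac14*, the scaffold of the lipid kinase PIKfyve (19.7, 20, 22.2 and 24.5 to 36.3, 34, 29.9 and 38.4 CPM; log2 fold change 0.66±0.10 SE, edgeR adjusted *P*=0.00206, 0.0105 without the P14 library numbered 2; WT 0.48±0.07 SE). *Mtmr12*, an inactive partner of myotubularin, went from 12.6, 12.1, 11.3 and 11.1 to 9.42, 6.91, 8.54 and 7.45 CPM (log2 fold change -0.56±0.11 SE, edgeR adjusted *P*=0.00683, smaller than the fold required of a DEG). *Dnm2*, the dynamin of centronuclear myopathy, was at 57.2, 61.2, 56.3 and 60.5 CPM at P14 and 69.5, 65.9, 59.2 and 67.4 CPM at P21, which overlap (edgeR adjusted *P*=0.131). *Bin1*, which bends the membranes of the T tubules, went from 544, 602, 577 and 589 to 676, 859, 674 and 795 CPM without overlap (log2 fold change 0.36±0.10 SE, edgeR adjusted *P*=0.0233), with 521±35.1 and 520±76.7 CPM in WT. *Mtmr10* was at 21.1±1.6 and 24.9±3.07 CPM in KO and rose in WT from 21.8±1.72 to 33.2±4.72 CPM (interaction -0.36±0.14 SE, edgeR adjusted *P*=0.21). Of 29 genes of the triad and of calcium handling 1 fell and 0 rose in KO (4 higher at an unadjusted *P*-value under 0.05, 2 by DESeq2): *Sypl2*, mitsugumin 29, which shapes the triad, from 1529, 1593, 1786 and 1562 to 1009, 1057, 1018 and 1040 CPM (log2 fold change -0.66±0.08 SE, edgeR adjusted *P*=0.00119). *Ryr1*, its calcium release channel, went from 1851, 2498, 3209 and 3032 to 5084, 3806, 3920 and 4144 CPM without passing the test (edgeR adjusted *P*=0.0234).

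Calls among genes of growth control and protein turnover were few in number. Over all genes tested in KO 3.3% rose and 3.74% fell, and these lists were not tested against those shares. *Mstn*, the muscle-made inhibitor of growth, was at 43.7, 46.1, 50.9 and 35.5 CPM at P14 and at 13.3, 7.84, 27.8 and 9.96 CPM at P21 without overlap, and just missed the threshold (log2 fold change -1.59±0.35 SE, edgeR adjusted *P*=0.0108). *Klhl40*, a stabiliser of thin filaments, was the 1 of 26 genes of the ubiquitin ligases and FoxO list to rise in KO (0 to 4 rose when 1 library was left out; 110, 132, 153 and 145 to 224, 262, 194 and 222 CPM; log2 fold change 0.72±0.12 SE, edgeR adjusted *P*=0.00338, up to 0.0157), against 146±9.22 and 140±22.7 CPM in WT. Of 39 autophagy and lysosome genes 3 rose (2 to 5 when 1 library was left out), among them *Ctss* and *Hexa*, a subunit of a lysosomal hexosaminidase (31.5±2.16 to 53±6.91 CPM; edgeR adjusted *P*=0.00134), and 34 of 39 were positive. *Sqstm1*, the autophagy receptor p62, went from 224, 254, 298 and 424 to 545, 475, 409 and 548 CPM, which overlap (edgeR adjusted *P*=0.0218), with 295±77.8 and 295±43.1 CPM in WT. Of 53 cytosolic ribosomal protein genes 47 were negative with a median of -0.16, and 0 were DEGs in KO (31 lower at an unadjusted *P*-value under 0.05, 0 by DESeq2). *Nr1d1*, the clock gene REV-ERB alpha, rose in KO (47.3±8.02 to 154±50.7 CPM) and WT (41.1±4.26 to 157±62.7 CPM), and the hour of dissection is not stated.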

How the data were processed

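RNA of skeletal muscle from 32 mice (8 groups of 4) was sequenced by the authors after poly(A) selection with a stranded kit. Per the labels, reads were aligned to GRCm38 with STAR 2.6.1 and quantified with RSEM 1.2.22. The methods of the paper name HTSeq for the counts, which differs from the labels. The deposited values are expected counts per gene, which the authors estimated with RSEM by sharing reads between genes where they match more than 1, so close copies are uncertain. The annotation release and the strand setting are not given in the sources used here. The table holds 54838 genes, of which 54809 were given a symbol, and 0 of its columns went unused. Of its values 4.26% were not whole and were rounded.

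Counts were tested with edgeR 4.0.16 (R 4.3.3; quasi-likelihood test, TMM scaling, its own filter on low counts) within KO, within WT, and as the interaction over all 32 libraries with 8 group means, and *P*-values were adjusted by Benjamini and Hochberg's method across the whole table. The threshold for DEGs was 0.01 together with a change of more than 1.5-fold. SE is that of the log2 fold change. CPM were scaled by TMM over all libraries. Shares and positions were compared with two-sided exact permutation tests. The steps were tested on simulated data with 200 changed genes. DESeq2 1.42.0, other scalings and filters, a replicate block and leaving out each library were the alternatives.

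Named genes were the 12 highest and 12 lowest KO DEGs with no overlap between ages, a mean of at least 1 CPM in the higher group and no clone name as symbol, the 12 interaction genes with the smallest adjusted *P*-values, all members of lists of up to 12 genes, the 4 smallest adjusted *P*-values of longer lists with interaction genes, and genes of the study; not all are printed. Others are marked as chosen after their values were seen. Groups, lists and this rule were chosen with earlier results of these data known. Replicate numbers did not pair P14 with P21 libraries of a genotype. Deviations of same-numbered KO and WT libraries from their group means correlated by 0.19 to 0.588 at P14, and by -0.00789 to 0.187 at P21, so a block of number within age was added for the interaction after seeing the data. Replicates were separate mice, and each pair of replicates differed by more than sampling noise. Promoters are from RefSeq (GRCm38.p6), with 3 counts taken as the floor of detection.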

Additional observations from a re-analysis of the deposited data

Results flagged for a closer look

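Of the 282 groups of 4 libraries looked at, 10 had a library far from the other three by Dixon's test, which chance alone gives in about 1 of 20. They were the WT P21 library at position 0.4197 on the maturation line, *Actc1* at 311 CPM in KO P21 replicate 1, *Sh3kbp1* at 39 CPM and *Hspb7* at 532 CPM in KO P14 replicate 4, *Tuba4a* at 610 CPM in KO P21 replicate 2, *Timp1* at 4.48 CPM and *Hbb-bt* at 20.4 CPM in KO P14 replicate 3, *Lyz2* at 21.4 CPM in KO P14 replicate 2, *Ctss* at 9.23 CPM in KO P21 replicate 4, and *Gys1* at 453 CPM in KO P21 replicate 3.

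The change from P14 to P21 differed between KO and WT for 21 named genes by edgeR's interaction test. The KO change exceeded the WT change (log2) by 3.59 for *Rrad*, 3.34 for *Mt3*, 3.11 for *Sln*, 2.88 for *Eda2r*, 2.66 for *Hsf2bp*, 2.55 for *Cxcl10*, 2.46 for *Cilp*, 2.35 for *Col8a1*, 2.31 for *Cdkn1a* and 2.30 for *Cpne2*. It did so by 1.77 for *Ttc9*, 1.58 for *Runx1*, 1.57 for *Myl6b*, 1.54 for *Mustn1*, 1.5 for *Anxa4*, 1.27 for *Mfap5*, 1.11 for *Ctss*, 1.10 for *Osbpl3*, 1.10 for *Ppfibp1* and 0.68 for *Cyld*. For *Sh3kbp1* the difference was -1.15.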

How the results depend on the processing

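The count of genes changed from P14 to P21 in KO (1097) was 1765 with DESeq2, 1703 with all 32 libraries in 1 fit and 2095 at an adjusted *P*-value under 0.05. That of genes changed from P14 to P21 in WT (848) was 1340 with DESeq2 and 1567 at that threshold. The interaction count (79) was 199 with DESeq2, 263 at that threshold, 167 (161 higher and 6 lower in KO) with library totals as the only scaling, and 43 without both P14 libraries numbered 4, an alternative chosen after seeing the data. All 43 were among the 79. With same-numbered KO and WT libraries of 1 age as a block, also chosen after seeing the data, it was 77, of which 53 were among the 79, and 3 of 21 named genes were lost (*Runx1*, *Sln* and *Cxcl10*). Library totals moved the median of all genes in WT to -0.186 and split its calls 246 higher and 569 lower. With 1 library left out the counts ranged from 396 to 1884 in KO, from 349 to 1364 in WT and from 30 to 100 for the interaction. The replicate block gave 487 genes in KO, 144 in WT and 60 for the interaction. Correlations of same-numbered P14 and P21 KO libraries lay between -0.114 and 0.0648, so the numbers do not pair them. The KO difference in mitochondrial share ranged from -0.03577 to 0.6982, the step along the maturation line from 0.4144 to 0.5598, and the KO minus WT position at P21 from -0.1265 (exact permutation *P*=0.0286, without WT P21 replicate 3) to -0.06867. The step had an exact permutation *P* of 0.0571 without any 1 of the KO P21 libraries. *Myl6b* in KO ranged from -0.145 to 0.093, and was 0.047 without KO P14 replicate 1. Of 111 named KO calls, 69 were made under every alternative and all 111 kept their direction, as did the 21 interaction calls, of which 13 were made under every alternative. The causes were not tested. Of 100 list medians under RLE and library totals, 99 moved by less than 1 SD and 3 lists changed sign. Over every alternative run in KO, 36 of 50 lists kept the sign of their median and 14 did not.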
